A study of Drosophila melanogaster with 6 samples.

Results

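The genes described here make UDP-GlcNAc and use it to mark proteins with O-GlcNAc. They were chosen by name and not by a rule on their values, though with earlier results of these data known. They are the O-GlcNAc transferase gene *sxc* (*OGT*), the O-GlcNAcase gene *Oga* (*OGA*), and the hexosamine biosynthesis genes *Gfat1*, *Gfat2*, *Gnpnat*, *nst* and *mmy*. Of these 7 genes, 6 could be matched by FlyBase ID among the 17489 genes of the count tables, and all 6 passed the filter on low counts. *Gfat1*, whose ID in the annotation is FBgn0287209, could not be matched and was not analysed here.

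The hexosamine pathway diverts fructose-6-phosphate from glycolysis. GFAT enzymes add an amino group from glutamine in the committed step, Gnpnat acetylates the product, nst moves its phosphate, and mmy joins it to a uridine nucleotide to give UDP-GlcNAc. OGT transfers the GlcNAc of this sugar nucleotide to serines and threonines of nuclear and cytoplasmic proteins, OGA removes it, and so the mark is thought to follow the supply of sugar. In *D. melanogaster*, *sxc* is also known as a Polycomb group gene.

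mRNAs bound to FLAG-tagged ribosomes were isolated by Translating mRNA Affinity Purification (TRAP) from heads of male *Gr5a>UAS-Rpl3-3XFLAG* flies, in which the *Gr5a* driver directs the tagged ribosomal protein to sweet-taste neurons. Flies were moved to their diet on day 5 and sampled on day 12, with food of 5% sucrose as the control (CD + OSMI) and food of 30% sucrose as the sugar diet (SD + OSMI). OSMI-1, a small-molecule inhibitor of OGT, was present in either food at 10 µM, given in 10% DMSO. Replicates 1 to 3 came from CD + OSMI flies and replicates 4 to 6 from SD + OSMI flies, and every replicate was a pool of 300 heads. Flies without the inhibitor were not analysed here, so the values below compare diets while OGT was inhibited in both groups and do not measure the effect of OSMI.

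The libraries held 13324513 to 16122009 counts. The receptor gene of the targeted neurons, *Gr5a*, was at a TMM-normalized CPM of 0.549 to 2.00, while the photoreceptor gene *ninaE* was at 16352 to 23441 CPM. RNA of cells other than the targeted neurons was thus present in every library. By the edgeR test described below, 13 of 20 testis genes and 12 of 15 accessory gland genes were higher on SD + OSMI, and none was lower. Over all genes tested, 6.91% were higher and 2.18% lower. Of 8 fat body markers 1 was higher and 6 lower, of 6 gut markers 1 and 2, and of 3 oenocyte markers 2 and 0. In these bulk samples, a change in the number of cells of a type and a change in RNA per cell cannot be told apart. The samples were heads, and the source of the testis and accessory gland RNA in them was not tested.

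Each gene was compared between the diets with edgeR's quasi-likelihood test across 11915 genes, and a gene was called changed at an adjusted p under 0.1. A positive log2 fold change means a higher level on the sugar diet. None of the 6 genes was called by edgeR or DESeq2, while edgeR called 9.09% of all genes tested and DESeq2 called 12.5% of those given an adjusted p. The edgeR share depended on which libraries were fitted. Its 1083 calls became 76 without SD + OSMI replicate 6, 168 without replicate 5 and 2434 without replicate 4. Without CD + OSMI replicates 1, 2 and 3 in turn there were 1107, 199 and 214 calls. Each of these fits also has fewer libraries in a group. None of the 6 genes had an unadjusted p under 0.05, against 21.4% of all genes tested. For each of the 6 genes, the values on the 2 diets overlapped, whereas 24.8% of all genes tested had no overlap (14.5% higher and 10.2% lower on SD + OSMI). The median log2 fold change was −0.041 over the 6 genes and −0.0027 over all genes tested, and the median size of the change was 0.072 and 0.19. The median SE was 0.11 over the 6 genes and 0.18 over all genes tested, so the 6 were also estimated more precisely. They were not compared with genes of like precision. Levels of 5 of the 6 were practically equivalent between the diets, meaning that DESeq2 rejected changes beyond 1.5-fold at q under 0.05. This was the case for 47.1% of all genes tested.

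**Figure D1:**
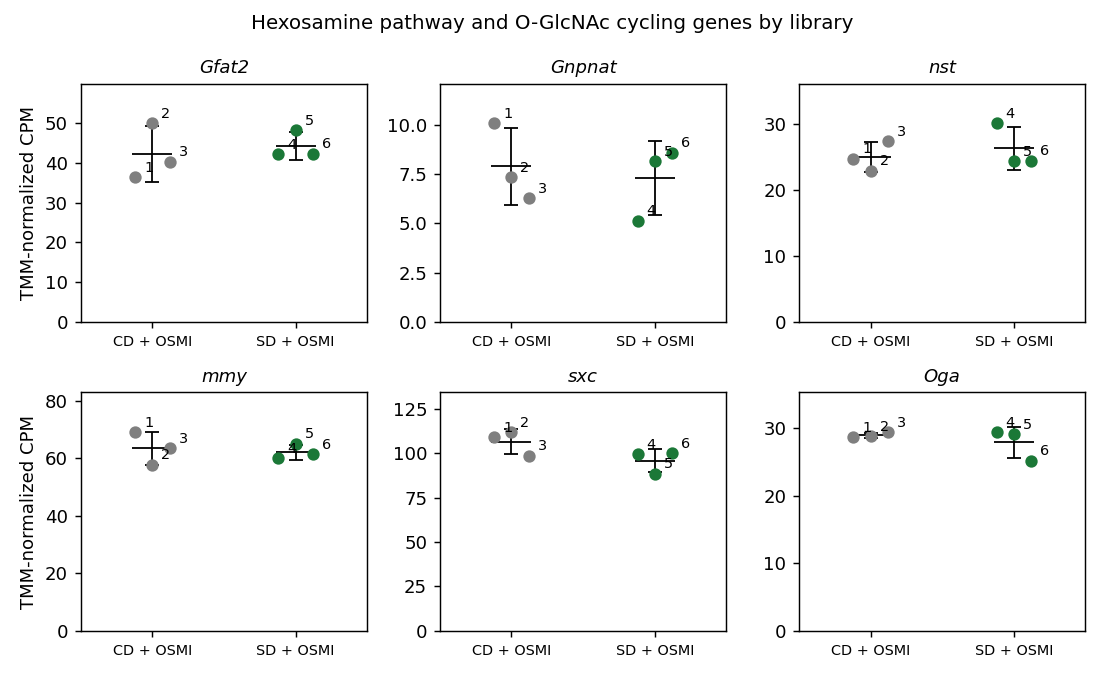
TMM-normalized CPM of each gene (y-axis, from 0) in the 3 libraries of CD + OSMI (gray) and of SD + OSMI (green), with the replicate number beside each point and the mean and SD in black. In each panel the 2 diets overlap.

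The first step of the pathway is represented here by *Gfat2* (FBgn0039580; BDGP6 3R, 28337019 to 28339765, minus strand), one of the fly genes for glutamine:fructose-6-phosphate aminotransferase. It was at 36.4, 49.9 and 40.2 CPM in replicates 1 to 3 on CD + OSMI, and at 42.2, 48.2 and 42.3 CPM in replicates 4 to 6 on SD + OSMI. The SD + OSMI values all lay within the range of the CD + OSMI values, of which replicate 2 was the highest. By edgeR its log2 fold change was 0.070 (SE 0.12, 95% interval −0.18 to 0.32, adjusted p = 0.786). Among its exon bases, 468 of 2545 are shared with *asRNA:CR46104* on the other strand, which had 57 counts over the 6 libraries against 3909 for *Gfat2*.

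*Gnpnat* (FBgn0039690; 3R, 29738275 to 29741952, plus strand), which encodes the glucosamine-phosphate acetyltransferase, had the fewest counts of the 6 genes, 81 to 156 per library. Its levels were 10.1, 7.34 and 6.29 CPM on CD + OSMI and 5.13, 8.14 and 8.58 CPM on SD + OSMI. Replicate 1 was the highest and replicate 4 the lowest of all libraries, and the other 4 values lay between them. Of those, both CD + OSMI values were below both SD + OSMI values, the opposite order to replicates 1 and 4. The coefficient of variation was 24.7% on CD + OSMI and 25.8% on SD + OSMI, while counting error alone would give about 9.36%. The edgeR estimate of −0.12 on the log2 scale (SE 0.24, adjusted p = 0.825) had the widest interval of the 6, from 0.642-fold to 1.32-fold. *Gnpnat* was also the gene that did not pass the test of equivalence (q = 0.0914), so that a 1.5-fold fall was not rejected at this depth and spread.

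*nst* (FBgn0036298; 3L, 12527215 to 12530171, minus strand), the gene of phosphoacetylglucosamine mutase, was at 24.7, 22.9 and 27.4 CPM on CD + OSMI. On SD + OSMI it was at 30.1, 24.4 and 24.5 CPM, and only replicate 4 was above the CD + OSMI range. edgeR gave a log2 fold change of 0.073 with an SE of 0.13 (adjusted p = 0.790) and an interval from 0.873-fold to 1.27-fold.

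*mmy* (FBgn0259749; 2L, 6468538 to 6473904, minus strand) encodes the UDP-GlcNAc pyrophosphorylase that completes the pathway. Its levels were 69.2, 57.8 and 63.5 CPM on CD + OSMI and 59.98, 65.1 and 61.4 CPM on SD + OSMI. All SD + OSMI values fell inside the CD + OSMI range. On the log2 scale the diets differed by −0.030 (SE 0.091, edgeR adjusted p = 0.890), the smallest change of the 6 in size, and the interval ran from 0.856-fold to 1.12-fold.

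For OGT itself, the target of the inhibitor, mRNA levels were slightly lower on the sugar diet, by less than the test could tell from the spread between replicates. *sxc* (FBgn0261403; 2R, 5307288 to 5329555, plus strand) had the most counts of the 6 genes, 1327 to 1691 per library. It was at 109, 112 and 98.6 CPM on CD + OSMI and at 99.4, 88.5 and 99.9 CPM on SD + OSMI. Replicate 3 on CD + OSMI was below replicates 4 and 6 on SD + OSMI, so the diets overlapped. The means were 107 ± 7.05 and 95.9 ± 6.43 CPM (SD, n = 3 per diet). edgeR put the log2 fold change at −0.15 with an SE of 0.087 (adjusted p = 0.339). Its interval ran from 0.791-fold to 1.02-fold. With the summed level of the testis markers as a second term in the fit, the log2 fold change of *sxc* was 0.0076. The testis marker sum was 1072 to 1610 CPM on CD + OSMI and 1943 to 3164 CPM on SD + OSMI, so that term and diet cannot be told apart. In the same fit *Gnpnat* was at −0.81 (SE 0.39, unadjusted p = 0.0525, edgeR adjusted p = 0.695), *mmy* at −0.25, *Gfat2* at 0.24, *nst* at 0.20 and *Oga* at −0.010, and none was called.

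*Oga* (FBgn0038870; 3R, 21219077 to 21222843, plus strand), the gene of the enzyme that removes O-GlcNAc, was the steadiest of the 6 on CD + OSMI, at 28.7, 28.8 and 29.5 CPM. On SD + OSMI it was at 29.5, 29.1 and 25.2 CPM, with replicate 6 below all other libraries. The coefficient of variation was 1.45% on CD + OSMI and 8.45% on SD + OSMI, and the counting error of about 4.82% lay between them. The edgeR estimate was −0.052 on the log2 scale (SE 0.11, adjusted p = 0.833), with an interval from 0.821-fold to 1.13-fold. *CG3337*, on the other strand, covers 1957 of the 3409 exon bases of *Oga*. It had 680 counts over the 6 libraries against 2583 for *Oga*, and differed by 0.13 on the log2 scale (SE 0.20, edgeR adjusted p = 0.761). Whether counting used strand is unknown here, so reads of this pair may have been shared or left out.

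Because OGT and OGA act against each other, the ratio of *sxc* to *Oga* counts was taken within each library, where it does not depend on scaling. The ratio was 3.81, 3.88 and 3.35 on CD + OSMI and 3.37, 3.04 and 3.96 on SD + OSMI. Replicates 5 and 6 on the sugar diet held the lowest and the highest ratio of all. The mean log2 ratio differed by −0.095 (exact permutation test, two-sided p = 0.7, where 0.1 is the smallest p that 3 replicates against 3 allow). Summed over the 6 genes, the level was 278, 279 and 265 CPM on CD + OSMI and 266, 263 and 262 CPM on SD + OSMI, again with overlap.

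**Figure D2:**
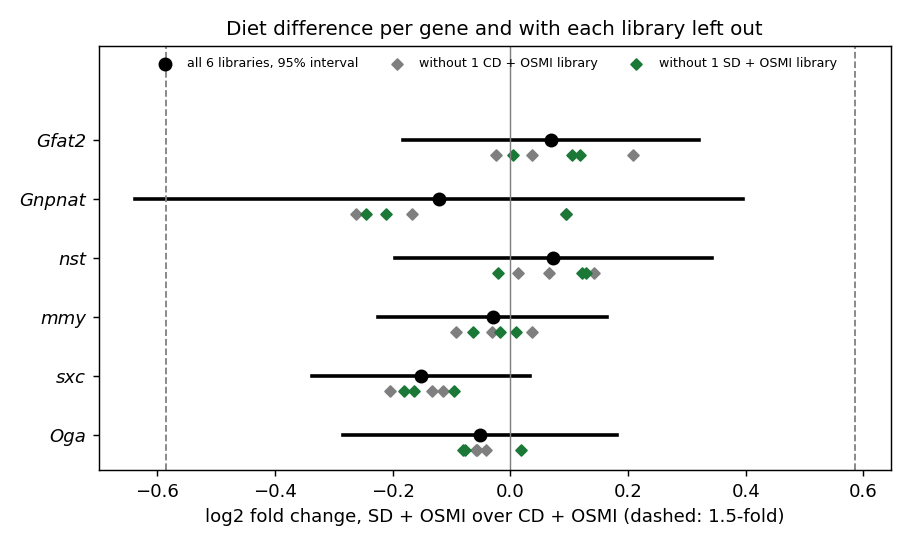
Log2 fold change (x-axis, SD + OSMI over CD + OSMI) of each gene with its 95% interval in black, and the values with 1 CD + OSMI library (gray) or 1 SD + OSMI library (green) left out below it. The dashed lines mark 1.5-fold, and the interval of *Gnpnat*, from −0.64 to 0.40, is the only one that crosses them.

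Leaving out each library in turn gave no call for any of the 6 genes. *sxc* kept a negative log2 fold change in each case, from −0.21 without CD + OSMI replicate 3 to −0.095 without SD + OSMI replicate 5. The sign of the other 5 turned without at least 1 library. *Gnpnat* was at 0.094 without CD + OSMI replicate 1 and at 0.095 without SD + OSMI replicate 4, and *Oga* was at 0.018 without SD + OSMI replicate 6. In each of these fits 5 of the 6 genes were practically equivalent, as with all 6 libraries, where 47.1% of all genes tested were.

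Levels can be set side by side between genes only per length, here as CPM per kb of annotated exon. On this scale *mmy* (28.9 ± 2.59 on CD + OSMI, 28.3 ± 1.197 on SD + OSMI) and *sxc* (29.0 ± 1.92 and 26.1 ± 1.75) were the highest (SD, n = 3 per diet). *mmy* was above *sxc* in 5 of 6 libraries, but their ranges overlapped and they were not told apart. *Gfat2* came next, at 14.3 to 19.6 CPM per kb over the 6 libraries, then *nst* at 10.4 to 13.7, *Oga* at 7.40 to 8.64 and *Gnpnat* at 3.28 to 6.44. From *sxc* downward, no range overlapped that of the next gene and the order was the same in all 6 libraries. The mean of *mmy* was above that of 82.7% of all genes tested, and the mean of *Gnpnat* above that of 36.8%. The place of *Oga* depended on the length used. If reads counted only where *CG3337* does not overlap, over 1452 exon bases, its range was 17.4 to 20.3 CPM per kb, close to *Gfat2* and above *nst*.

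**Figure D3:**
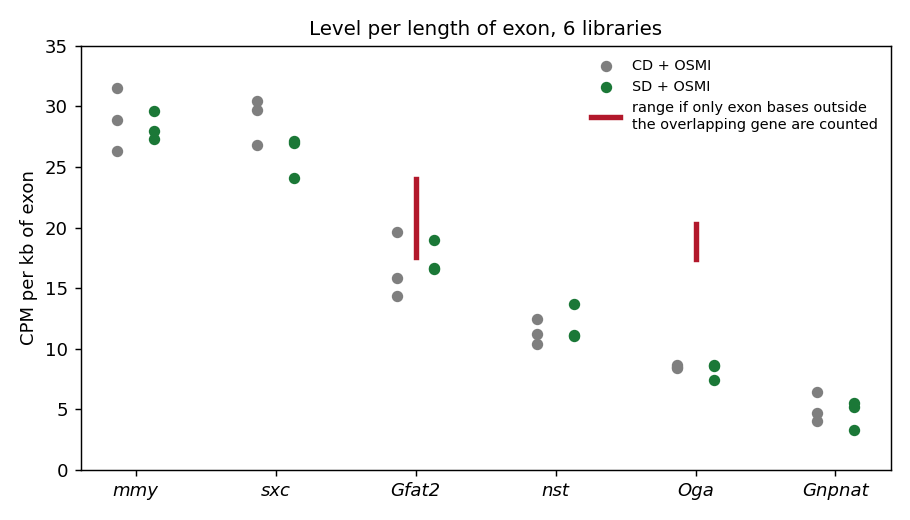
CPM per kb of annotated exon (y-axis, from 0) of the 6 genes in the 3 libraries of CD + OSMI (gray) and of SD + OSMI (green), from the highest mean to the lowest. Red bars give the range over all 6 libraries if only exon bases outside an overlapping gene were counted, which moves *Oga* from 7.40 to 8.64 up to 17.4 to 20.3.

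To see which genes had a profile like those of the cycling enzymes, log2 CPM was centered on each gene's own mean and compared over the 6 libraries, with the mean absolute difference as the distance. The nearest to *sxc* were *pins* (0.019), *Brd7-9* (0.022) and *CG14408* (0.025), against a median distance of 0.18 to all other genes tested. The nearest to *Oga* were *Scamp* (0.020), *TyrR* (0.022) and *tho2* (0.022), against a median of 0.17. These are descriptions of 6 libraries, and genes with little change lie close to each other on this measure.

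The genes around the pathway were described next, in lists of enzymes that supply its substrates, salvage GlcNAc, carry sugar nucleotides or use UDP-GlcNAc. Of 37 tested neighbors, 2 were higher on SD + OSMI and none was lower, where 6.91% of all genes tested were higher and 2.18% lower. The median log2 fold change of the neighbors was 0.062, and 27 of the 37 were practically equivalent, beside 47.1% of all genes tested. Equivalence depends on the SE, and neither the neighbors nor their separate lists were compared with genes of like precision. DESeq2 called 5 of the 37, beside its 12.5% over all genes. Without CD + OSMI replicate 2 or 3, or without SD + OSMI replicate 5 or 6, none of the neighbors was called, and without SD + OSMI replicate 4 there were 7 calls. In that last fit 2434 genes were called over all genes (1634 higher, 800 lower). Its neighbor calls were 2 higher for hexose phosphates, 2 higher for pyrimidine nucleotides and 1 higher for chitin, with 1 lower for glutamine and 1 lower for glycosylation.

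Upstream of the pathway, 1 of 7 genes of glucose phosphorylation and hexose phosphate use was called. *Hex-t2*, a hexokinase gene known for expression in the testis, rose on SD + OSMI. Its levels were 14.7, 7.96 and 13.8 CPM on CD + OSMI and 18.1, 28.1 and 30.4 CPM on SD + OSMI, with no overlap. This was a log2 fold change of 1.07 by edgeR (SE 0.27, adjusted p = 0.0668), which was 0.011 (SE 0.25) with the testis marker sum as a second term. That sum, given above, was also higher in every SD + OSMI library, so that term and diet cannot be told apart. With no filter on low counts *Hex-t2* was no longer called (log2 fold change 1.07, edgeR adjusted p = 0.112), but 1 other gene of this list was called higher. *Hex-A*, the main hexokinase gene of the fly, had means of 487 ± 25.9 and 454 ± 24.8 CPM on the control and sugar diets (SD, n = 3 per diet, log2 fold change −0.10, edgeR adjusted p = 0.535). *Hex-C* had means of 36.8 ± 1.03 and 45.8 ± 7.40 CPM, with no overlap (SD, n = 3 per diet, log2 fold change 0.31, edgeR adjusted p = 0.129). *Hex-t1* had means of 1.82 ± 0.956 and 3.37 ± 0.741 CPM, with overlap (SD, n = 3 per diet, log2 fold change 0.88, edgeR adjusted p = 0.204). Neither was called by edgeR or DESeq2. *Pgi*, which encodes the enzyme that makes fructose-6-phosphate, had means of 433 ± 29.0 and 373 ± 12.4 CPM (SD, n = 3 per diet). Its log2 fold change of −0.21 (SE 0.085) did not pass the test by edgeR (adjusted p = 0.165) and passed by DESeq2 (adjusted p = 0.0949), and it was practically equivalent. By edgeR 4 of the 7 genes had an unadjusted p under 0.05, beside 21.4% of all genes tested. These were *Hex-C*, *Hex-t1* and *Hex-t2*, which were higher, and *Pgi*, which was lower.

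The amino group and the nucleotide come from other routes. Of the glutamine synthetase genes, *Gs2*, which is expressed in glia, was at 854, 753 and 790 CPM on CD + OSMI and at 694, 647 and 688 CPM on SD + OSMI. These values did not overlap, but the log2 fold change of −0.24 (SE 0.090) passed the threshold only by DESeq2 (adjusted p = 0.137 by edgeR and 0.0396 by DESeq2). *Gs1*, the mitochondrial form, had a log2 fold change of 0.081 (adjusted p = 0.622 by edgeR). None of 6 glia markers was called by edgeR, and DESeq2 called 1, *Gs2* itself. Of 5 genes of pyrimidine nucleotide synthesis, 1 was called. *Dhod*, the gene of dihydroorotate dehydrogenase, rose from 16.8, 15.6 and 17.1 CPM on CD + OSMI to 20.5, 25.3 and 24.5 CPM on SD + OSMI. By edgeR this was 0.51 on the log2 scale (SE 0.13, adjusted p = 0.0510). With the testis marker sum as a second term it was 0.19 (SE 0.22, edgeR adjusted p = 0.894), but that term and diet cannot be told apart. Small parts of the *Dhod* exons, 69 and 103 of 1472 bases, are shared with genes on the other strand.

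None of the 5 genes of GlcNAc salvage was called, and all 5 were practically equivalent, beside 47.1% of all genes tested. *Nagk*, which encodes the kinase that returns free GlcNAc to the pathway, had the smallest p among them, with means of 50.9 ± 0.685 and 57.2 ± 3.56 CPM on the control and sugar diets (SD, n = 3 per diet, log2 fold change 0.17, edgeR adjusted p = 0.294). It was followed by *fdl*, a hexosaminidase gene of N-glycan trimming, at −0.083 (adjusted p = 0.607).

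Among genes that use UDP-GlcNAc, none of 12 for glycosylation was called, and 10 were practically equivalent, beside 47.1% of all genes tested. *fng*, which encodes the glycosyltransferase that adds GlcNAc to Notch, had means of 39.1 ± 2.19 and 33.1 ± 3.37 CPM (SD, n = 3 per diet, log2 fold change −0.24, edgeR adjusted p = 0.201). *Mgat2*, of N-glycan branching, had a log2 fold change of −0.17 (adjusted p = 0.274). *Eogt*, the gene of the extracellular O-GlcNAc transferase, had one of −0.079 (SE 0.14, adjusted p = 0.798). Of the 2 chitin synthase genes, *Chs2*, the gut form, was at 13.04, 9.13 and 11.6 CPM on CD + OSMI and at 12.5, 24.99 and 19.3 CPM on SD + OSMI. Its log2 fold change of 0.75 (SE 0.24) had an adjusted p of 0.103 by edgeR and 0.0270 by DESeq2. With no filter on low counts, 1 of the 2 chitin synthase genes was called by edgeR. For *kkv*, the cuticle form, the log2 fold change was 0.37 (SE 0.27, adjusted p = 0.460). Among 4 tested transporters of sugar nucleotides none was called by edgeR or DESeq2. By edgeR 1 had an unadjusted p under 0.05, beside 21.4% of all genes tested. This was *Ugalt* (log2 fold change 0.36, adjusted p = 0.220). *senju* was next, at −0.30 (adjusted p = 0.442). The transporter gene *frc* had 0 counts in all 6 libraries and was not tested.

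**Figure D4:**
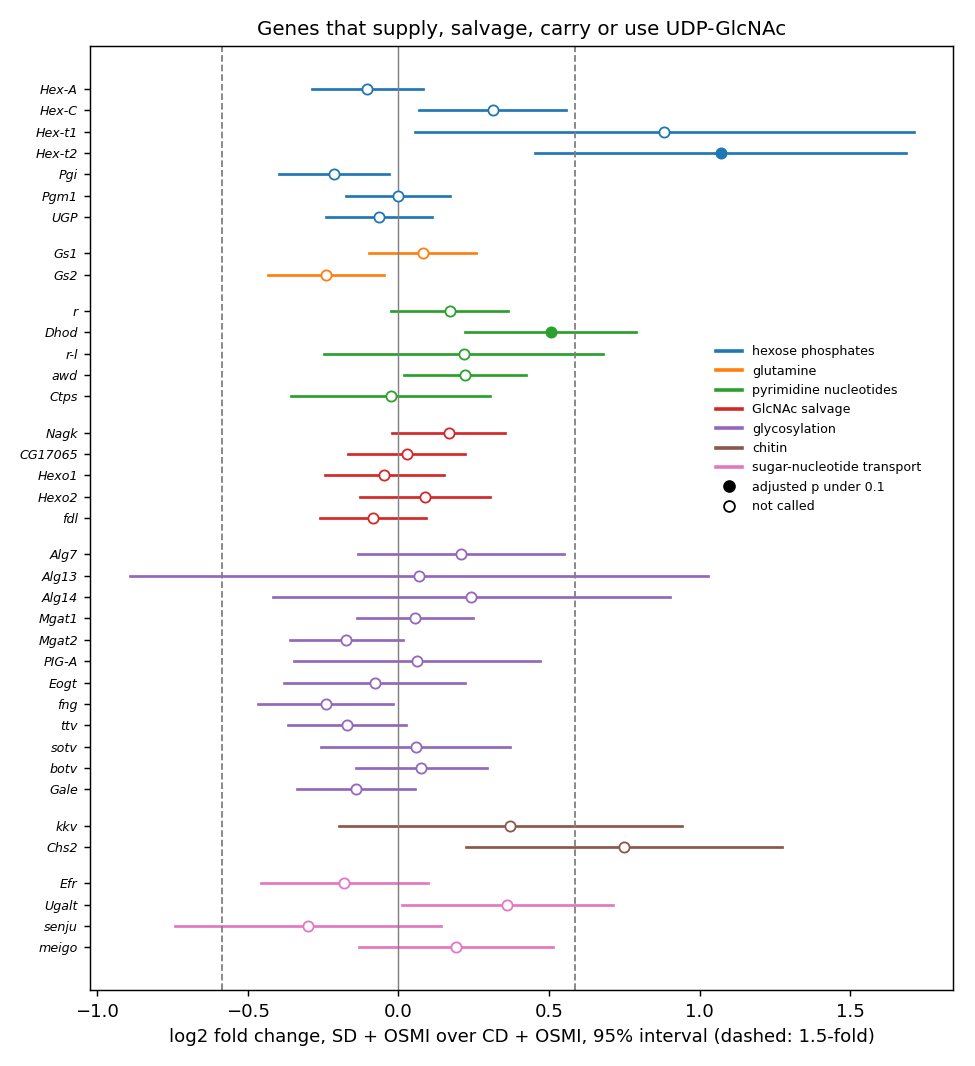
Log2 fold change (x-axis, SD + OSMI over CD + OSMI) with its 95% interval for the 37 tested neighbors of the pathway, colored by list, with dashed lines at 1.5-fold. Filled points are the 2 genes called by edgeR, *Hex-t2* (1.07) and *Dhod* (0.51), and open points were not called.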

How the data were processed

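Reads were quality-filtered by the authors and mapped to BDGP6 (dm6) with STAR, and HTSeq assigned them to genes (SAMtools 1.4 is also listed). The deposited values were raw counts per gene with no normalization, in 1 file per library. The strand setting and the annotation release of the count are not given in the sources used here. The authors tested diets with DESeq2 1.18.0.

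Symbols, positions and exon lengths came from the Ensembl annotation of BDGP6, in which 17215 of 17489 IDs had a symbol. Genes that reached 10 counts in 3 or more libraries were fitted in R 4.3.3 with edgeR 4.0.16 (TMM, robust quasi-likelihood, diet as the only term) and adjusted by Benjamini-Hochberg over all genes. SE was derived from the F statistic. CPM used TMM library sizes. Equivalence used a one-sided normal test on the estimates and SE of DESeq2 1.42.0 (limit of 1.5-fold, q under 0.05), the criterion in the study's methods. Other fits used limma 3.58.1 (voom), and the ratio was tested in Python 3.11.15 with scipy 1.17.1. Profiles were compared on log2(CPM + 0.5). The fit was tested on simulated data.

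Named genes are the matched members, the called genes of each neighbor list or else its 2 genes with the smallest p, and the genes that overlap a member. *Hex-A*, *Hex-C*, *Hex-t1*, *Pgi*, *Eogt* and *frc* were named after their values were seen. The members and lists were chosen with earlier results of these data known. Alternatives were limma-voom, DESeq2, upper-quartile or RLE factors, no filter or at least 50 counts, an adjusted p under 0.05, leaving out the male markers, the 20 most abundant genes or each library, the testis marker sum as a covariate, and other limits of equivalence. Of the marker lists, sweet taste (4 tested), neuron (4), glia (6), photoreceptor (10), muscle (4) and hemocyte (3) had no call by edgeR, no bitter taste gene passed the filter, and fat body had 1 higher and 6 lower of 8, gut 1 and 2 of 6, and oenocyte 2 and 0 of 3. The labels call the replicates biological and give no sequencing batch. The chi-square of replicate pairs per degree of freedom was 10.6 to 33.1, more than sampling noise in every pair.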

Additional observations from a re-analysis of the deposited data

How the results depend on the processing

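No member was called in any of 17 settings, and the lowest adjusted p of a member was 0.245 (*sxc* without SD + OSMI replicate 4). No paired analysis was possible because the diets share no replicate numbers. With the testis marker sum as a covariate, *sxc* was at 0.0076, *Gnpnat* at −0.81, *mmy* at −0.25, *Gfat2* at 0.24, *nst* at 0.20 and *Oga* at −0.010, 24 genes were called over all genes (7 higher, 17 lower) and none of the neighbors. At an adjusted p under 0.05 there were 400 calls (310 higher, 90 lower) and none among the neighbors. DESeq2 called 5 neighbors and 1434 genes in all. With no filter, *Hex-t2* lost its call and 3 neighbors were called, 1 each in the hexose phosphate, pyrimidine nucleotide and chitin lists. At the single tighter limit of equivalence that was run 0 of the members were equivalent, and at 2-fold all 6 were. Leaving out 1 library gave 76 calls over all genes (without SD + OSMI replicate 6) to 2434 (without SD + OSMI replicate 4), with 168 to 214 without CD + OSMI replicate 2 or 3 or SD + OSMI replicate 5 (42 to 1634 higher, 34 to 800 lower), 0 to 7 neighbors (*Hex-t2* and *Dhod* both lost their call without CD + OSMI replicate 2 or 3 or SD + OSMI replicate 5 or 6), and log2 fold changes of −0.024 to 0.21 for *Gfat2*, −0.26 to 0.095 for *Gnpnat*, −0.021 to 0.14 for *nst*, −0.092 to 0.037 for *mmy* and −0.081 to 0.018 for *Oga*. The 1083 calls became 1039 with RLE factors and 1099 with upper-quartile factors, and no member changed sign with either. The planned ratio of *Gfat2* to *Gfat1* counts was not run.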

Other observations

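*frc*, a sugar nucleotide transporter gene on 3L of BDGP6 (17428936 to 17433190, minus strand), had 0 counts in every library. All of its 3871 exon bases are also exon bases of *Coq4* on the same strand, and *Coq4* had 0 counts over the 6 libraries as well. How reads in shared exons were counted was not tested, so these zeros set no limit on the level of either gene.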
